A study of Mus musculus with 8 samples.

Results

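The D-type cyclins, the kinases they activate and the Cip/Kip inhibitors were followed as 8 genes, Ccnd1, Ccnd2, Ccnd3, Cdk4, Cdk6, Cdkn1a, Cdkn1b and Cdkn1c, chosen by name from the 31058 genes and reporter elements of the deposited matrix. All 8 were found, each as 1 row. The mice, called Ki67TD-NES, carried a Nestin-GFP transgene, a tamoxifen-inducible Cre recombinase knocked into 1 copy of Mki67 (Ki67-creERT2), and a tdTomato reporter that stays silent until Cre removes a stop sequence. Tamoxifen was given to every mouse, so there is no group without Cre or without tamoxifen, and the dentate gyri of several males and females of a mixed C57BL/6J and CD1 background were pooled in each experiment. Cells with GFP, with or without tdTomato, were taken by flow cytometry and sequenced on the 10x platform. The 7 experiments are called M1 (mice of 1 month), M2a, M2b and M2c (2 months) and M6a, M6b and M6c (6 months), and M2a joins a pair of libraries, which makes 8 in all. The sort enriches cells with an active Nestin promoter, and the gate let through many oligodendrocyte lineage and vascular cells. One label at 2 months names double-negative cells beside double-positive ones.

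D-type cyclins are the sensors of the G1 phase. Growth signals raise cyclin D1, D2 or D3, which binds Cdk4 or Cdk6, and the complex phosphorylates the retinoblastoma proteins that hold E2F transcription factors in check. Once E2F is released, cyclin E and cyclin A with Cdk2 carry the cell into DNA replication. The Cip/Kip proteins p21 (Cdkn1a), p27 (Cdkn1b) and p57 (Cdkn1c) bind cyclin-kinase complexes and oppose Cdk2, while also helping cyclin D and Cdk4 to assemble. In the hippocampus, cyclin D2 is known as the D-type cyclin of adult neurogenesis, p57 is known for holding neural stem cells in quiescence, and p27 accumulates as precursors leave the cycle.

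The matrix held counts of unique molecular identifiers (UMIs), each standing for 1 captured transcript, and the libraries ranged from 4861883 to 43826338 UMIs. Median UMIs per barcode were 1960 to 2920.5 with chemistry Version 2, used for all libraries at 2 months and no others, and 4734.5 to 7636.5 with Version 3, so that 2 months and the chemistry cannot be told apart. Of 24376 cells that passed the filters, 424 carried markers of 2 lineages and were left out as doublets, 21366 fell into a cell type by fixed marker lists and 2586 into none. Cycling cells were called from 47 genes of S phase or G2 and mitosis, none a member. A cell counted as cycling with at least 20 UMIs per 10000 from these genes and at least 5 of them detected. It counted as non-cycling below 10 per 10000, and 1313 cells met neither rule. G1 cells can fall on either side of these limits. The S-phase genes include Mcm genes and Pcna, which the paper describes as expressed in G1 as well as in S phase. The types used most were non-cycling neural stem cell (NSC)-like cells (1563 cells), cycling neural progenitors (1357), neuroblast-like cells (2190), non-cycling oligodendrocyte precursor cell (OPC)-like cells (5514), cycling OPC-like cells (270), committed oligodendrocyte-like cells (318) and mature oligodendrocyte-like cells (6615). The median cell showed 100% of the OPC markers in OPC-like cells, 87.5% of the neuroblast markers in neuroblast-like cells and 40% of the NSC markers in NSC-like cells. Cycling OPC-like cells numbered 10 or more in only 4 experiments (67 in M1, 11 in M2c, 44 in M6b and 135 in M6c). The same barcode sequence occurred in more than 1 library for 59 sequences. UMIs were summed per experiment and type, the experiment is the replicate, and levels are UMIs per 1000000 UMIs of the sum (CPM). Fold changes come from edgeR, which rescales the sums again (TMM), so a fold change can differ from the ratio of CPM, and a gene is called changed at a Benjamini-Hochberg adjusted p under 0.05 over all genes tested. UMIs were not divided by gene length, since each counts 1 3′ end, and how well each member's 3′ end is captured was not measured.

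In GRCm38, Ccnd1 lies at chr7:144929931-144939925 on the minus strand, Ccnd2 at chr6:127125162-127152193 (minus), Ccnd3 at chr17:47505051-47599691 (plus), Cdk4 at chr10:127063534-127067920 (plus) and Cdk6 at chr5:3341485-3531008 (plus). Cdkn1a lies at chr17:29090976-29100727 (plus), Cdkn1b at chr6:134920401-134925513 (plus) and Cdkn1c at chr7:143458339-143461050 (minus), within an imprinted domain. Counts cover whole genes. Cdk4 and Cdk6, the kinases that D-type cyclins activate, were both higher in cycling neural progenitors, as were Cdkn1a and Cdkn1b. RefSeq promoters (GRCm38.p6) were at hand for Ccnd3, Cdk4, Cdk6, Cdkn1a and Cdkn1b. In the 250 bases before the start, 6.02% of 32851 promoters held CACGTG, the E-box that Myc family proteins can bind and which reads the same on both strands. Of the 5 members matched, 2 held it, Cdk4 and Cdk6, and only these promoters are shown. Those of Cdkn1a, Cdkn1b and Ccnd3 held no copy. The copies are in capitals in these sequences, chr10:127063285-127063534 and chr5:3343643-3343892, both on the plus strand. The Cdk6 stretch precedes a RefSeq start and lies inside the gene span given above, which comes from another annotation.
Cdk4: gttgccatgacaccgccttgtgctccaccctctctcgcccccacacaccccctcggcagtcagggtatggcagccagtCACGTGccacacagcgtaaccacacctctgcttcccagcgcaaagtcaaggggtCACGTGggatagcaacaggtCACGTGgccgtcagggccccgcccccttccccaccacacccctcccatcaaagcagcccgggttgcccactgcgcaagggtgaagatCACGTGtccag
Cdk6: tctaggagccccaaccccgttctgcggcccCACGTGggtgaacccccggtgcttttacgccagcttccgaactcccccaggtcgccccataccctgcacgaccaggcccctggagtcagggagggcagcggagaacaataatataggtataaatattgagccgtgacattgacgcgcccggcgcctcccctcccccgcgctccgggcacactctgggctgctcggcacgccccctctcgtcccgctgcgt
Cdk4 held 4 copies and Cdk6 held 1. A match of letters is a description of the sequence, and binding was not measured.

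The 3 D-type cyclins divided the cell types between them. Ccnd2 averaged 1960 ± 470 CPM (SD, n = 7 experiments) in cycling neural progenitors and 1126 ± 390 in the few non-cycling cells like intermediate progenitor cells (IPCs; n = 4), and the ranges of these types overlapped. Neuroblast-like cells followed at 320 ± 104 and NSC-like cells at 275 ± 57.2, which overlapped with each other but lay below both types before them. Cycling OPC-like (57.3 ± 35.7, n = 4), mural-like (51.7 ± 40.4), OPC-like (44.5 ± 18.0), astrocyte-like (40.5 ± 10.6) and endothelial-like cells (39.2 ± 30.4) could not be ordered within their spread. Mature oligodendrocyte-like cells were lowest of the lineage types at 4.49 ± 4.31 CPM.

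Ccnd1 had another order. Its level was 750 ± 84.6 CPM in cycling OPC-like cells (n = 4) and 526 ± 111 in OPC-like cells (n = 7), and every other type stood below both. Committed oligodendrocyte-like cells (68.1 ± 66.6, n = 6), cycling neural progenitors (47.9 ± 15.3), endothelial-like cells (46.8 ± 18.9) and NSC-like cells (26.9 ± 9.81) formed a middle group whose ranges overlapped. Neuroblast-like (6.45 ± 3.13), mature oligodendrocyte-like (6.19 ± 4.35) and astrocyte-like cells (5.90 ± 4.32) were at the bottom. Ccnd3 varied least of the cyclins, from 177 ± 70.5 CPM in endothelial-like cells and 160 ± 91.9 in cycling OPC-like cells, through 86.6 ± 16.4 in OPC-like cells and 47.9 ± 13.4 in NSC-like cells, to 18.3 ± 7.17 in mature oligodendrocyte-like cells.

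The kinases were highest in cycling neural progenitors and IPC-like cells. Cdk4 was 987 ± 79.1 CPM in cycling neural progenitors and 1020 in IPC-like cells (941 to 1148, n = 4), which overlapped, then 642 ± 42.6 in neuroblast-like, 485 ± 39.9 in committed oligodendrocyte-like, 415 ± 58.6 in cycling OPC-like and 278 ± 56.1 in OPC-like cells. Cdk6 was 411 ± 104 CPM in cycling neural progenitors, 278 ± 86.9 in IPC-like cells, 170 ± 46.9 in neuroblast-like cells and 63.8 ± 30.6 in NSC-like cells, while OPC-like cells had 24.7 ± 13.7 and committed oligodendrocyte-like cells 0.767 ± 1.37. The inhibitors had their highest levels elsewhere. Cdkn1a was 403 ± 220 CPM in endothelial-like cells, 59.5 ± 23.4 in cycling neural progenitors and 5.38 ± 6.35 in NSC-like cells. Cdkn1c was 254 ± 139 CPM in endothelial-like, 125 ± 59.6 in committed oligodendrocyte-like and 107 ± 33.6 in mural-like cells, against 0.621 ± 1.46 in NSC-like cells, whose 7 sums together held 5 UMIs. Cdkn1b varied less, between 39.6 ± 28.5 CPM in committed oligodendrocyte-like and 181 ± 60.2 in neuroblast-like cells, and in cycling neural progenitors it was 78.1 to 110 CPM in the 3 experiments on Version 2 and 149 to 189 in the 4 on Version 3, with no overlap.

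**Figure D1:**
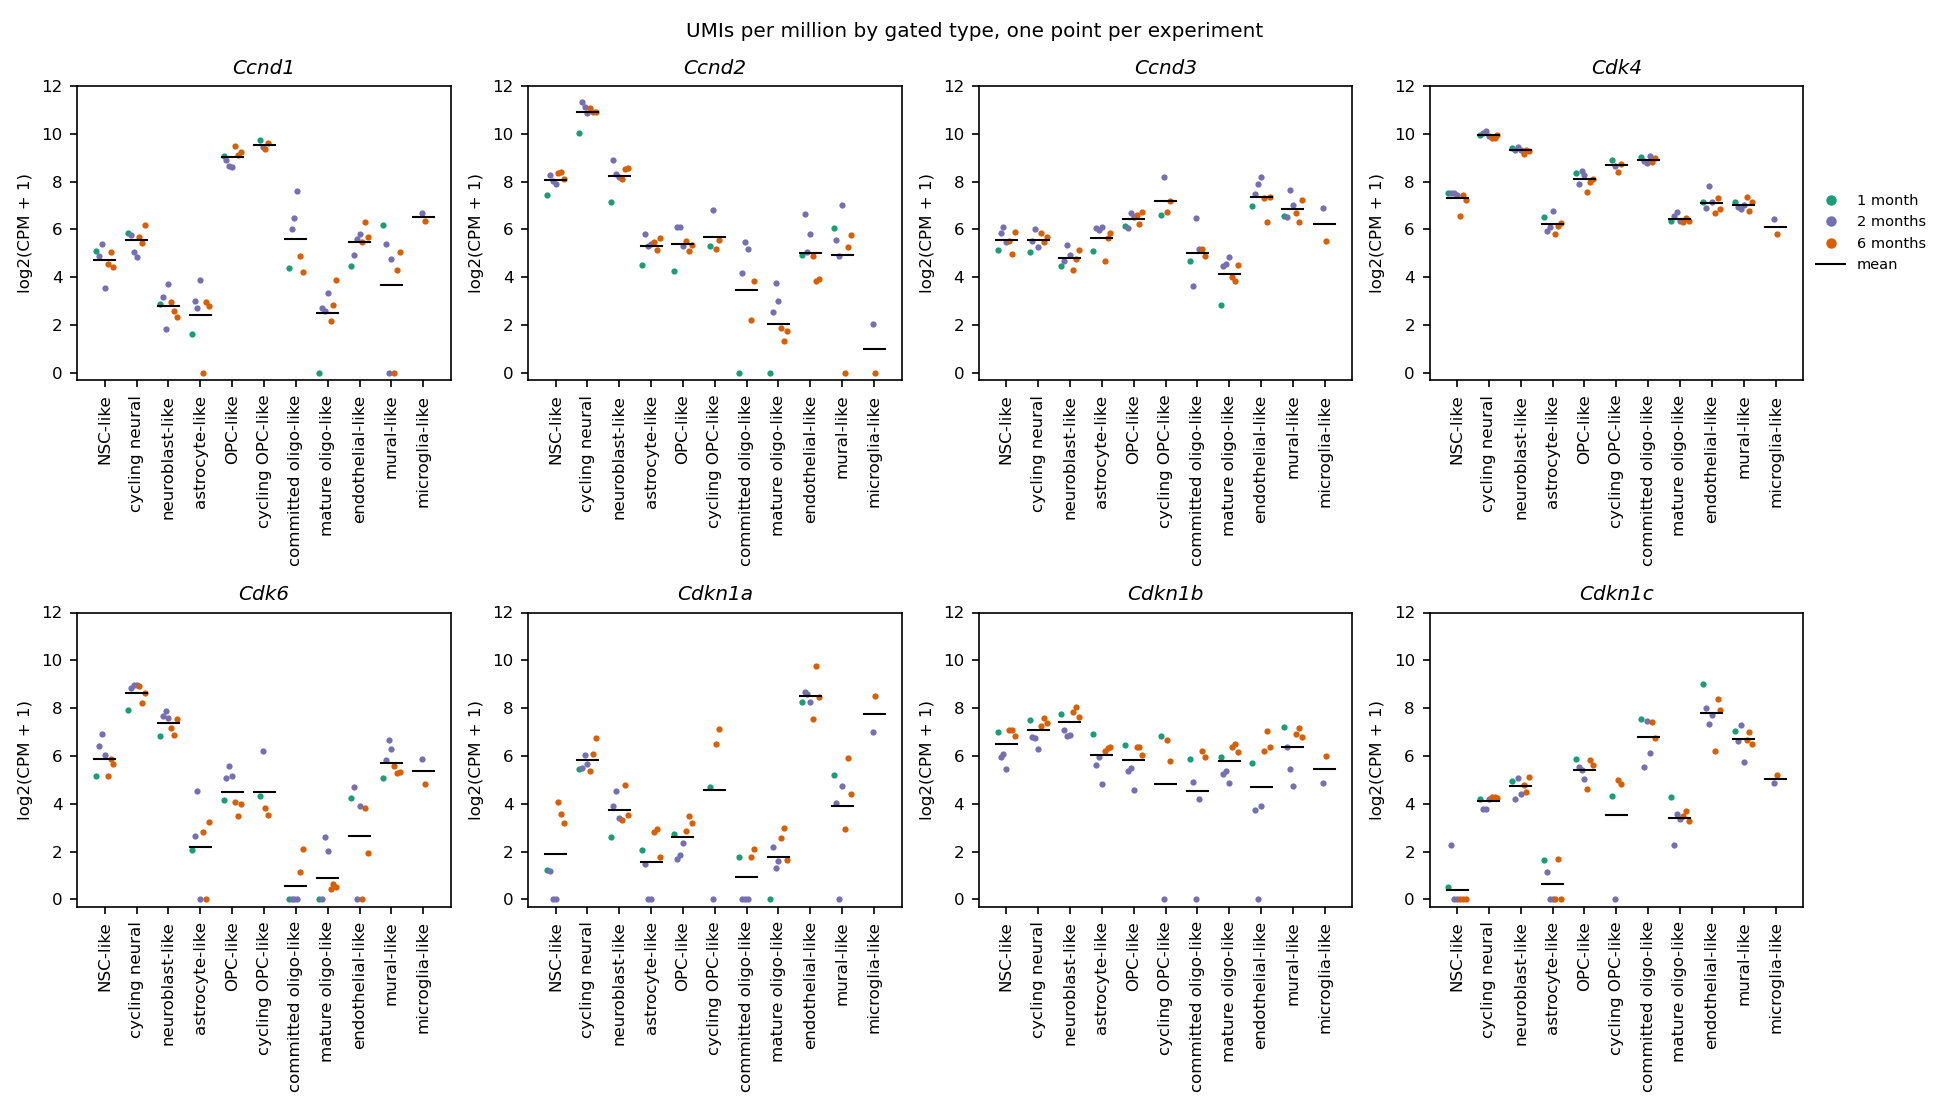
Level of each gene in each cell type, with 1 point per experiment coloured by age and a bar at the mean of the points. The vertical axis is log2(CPM + 1), and IPC-like cells are not drawn. Of the types drawn, Ccnd2, Cdk4 and Cdk6 are highest in cycling neural progenitors, Ccnd1 in cycling and non-cycling OPC-like cells, and Cdkn1a and Cdkn1c in endothelial-like cells.

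Within the D-type cyclins, Ccnd2 took 95.1 ± 1.56% of the UMIs of all 3 in cycling neural progenitors, 78.2 ± 5.19% in NSC-like and 89.6 ± 3.42% in neuroblast-like cells (n = 7). Ccnd1 took 79.6 ± 5.41% in OPC-like cells (n = 7) and 78.2 ± 10.2% in cycling OPC-like cells (n = 4), where Ccnd2 took 5.72 ± 2.87%. The leading cyclin differed between these neural types and OPC-like cells, in cycling and in non-cycling cells. By mean share, Ccnd3 led in astrocyte-like cells (52.1 ± 7.55%, Ccnd2 42.4 ± 10.1%, n = 7). It also led in mature oligodendrocyte-like cells (68.2 ± 14.9%, Ccnd1 19.0 ± 11.7%, n = 7). In committed oligodendrocyte-like cells Ccnd1 took 49.7 ± 17.4% and Ccnd3 37.0 ± 19.4% (n = 6). The share of Ccnd2 was 71.3 ± 6.79 percentage points higher in NSC-like than in OPC-like cells, in 7 of 7 experiments (two-sided exact sign-flip permutation test, p = 0.0156, adjusted for 2 such tests 0.0313). Between cycling neural progenitors and cycling OPC-like cells the difference was 88.9 ± 2.02 points, in 4 of 4 experiments, and the exact permutation p of 0.125 is the smallest that 4 experiments allow.

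Single cells showed the same division. Cells with at least 2000 UMIs were thinned to 2000, and shallower cells were left out. The median depth was below this in NSC-like cells of M2b (1466) and in OPC-like cells of M2b (1371) and M2c (1908). After thinning, Ccnd2 was seen in 86.3% of cycling neural progenitors, 26.7% of NSC-like, 6.74% of cycling OPC-like and 6.23% of OPC-like cells. Microglia-like cells, which should lack it, gave 0.183%. Ccnd1 was seen in 72.3% of cycling OPC-like cells, 62.0% of OPC-like cells and 8.49% of cycling neural progenitors, against 1.01% of mature oligodendrocyte-like cells. Both cyclins were seen together in 7.43% of cycling neural progenitors and 4.35% of OPC-like cells. Unthinned, at median depths of 8117 UMIs in cycling neural progenitors, 6627.5 in OPC-like and 9092 in cycling OPC-like cells, the shares with Ccnd2 were 96.1%, 16.0% and 23.3%, and those with Ccnd1 were 25.6%, 82.5% and 95.9%.

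**Figure D2:**
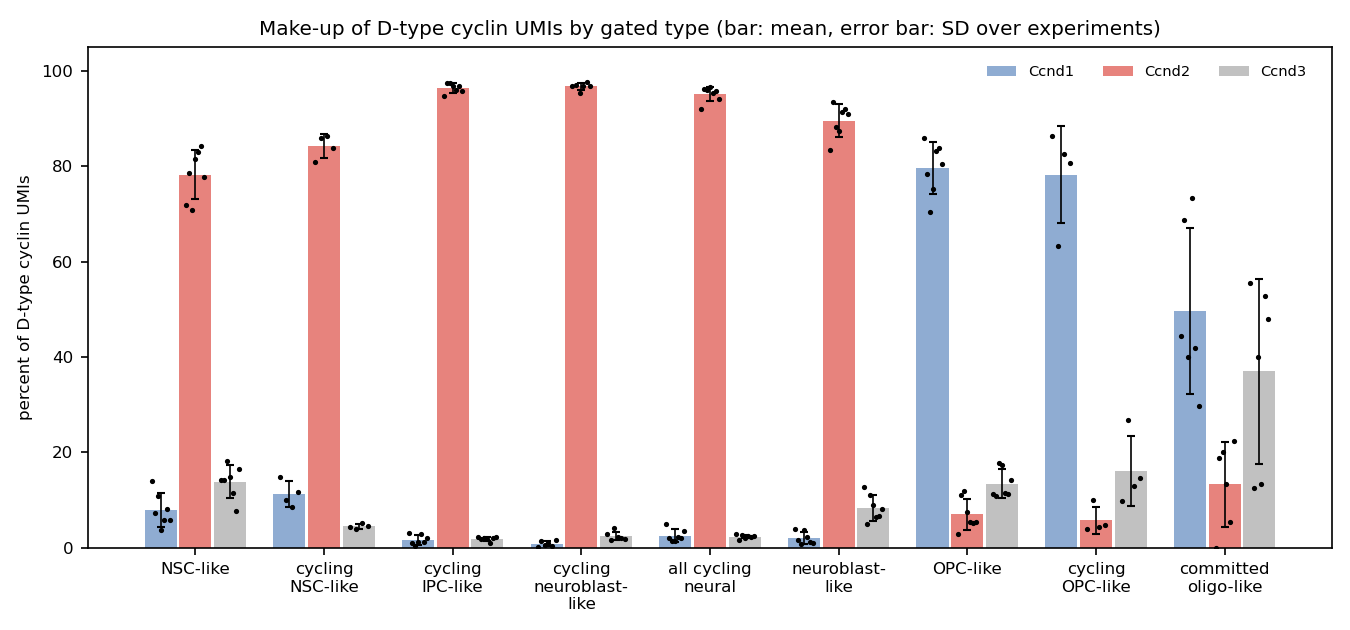
Shares of Ccnd1, Ccnd2 and Ccnd3 in the UMIs of all 3 D-type cyclins, in percent, by cell type, with bars for the mean, error bars for the SD and 1 point per experiment. Ccnd2 holds most in the neural types drawn (95.1% in cycling neural progenitors) and Ccnd1 in OPC-like and cycling OPC-like cells (79.6% and 78.2%). Astrocyte-like and mature oligodendrocyte-like cells are not drawn.

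Cycling neural progenitors had more of 7 of the 8 genes than NSC-like cells. The types were compared within the same animals to find which of these genes differ between dividing and non-dividing neural cells. They differ in stage as well as in division. The few non-cycling IPC-like cells overlapped with cycling neural progenitors in Ccnd2, Cdk4 and Cdk6. Of 11764 genes tested, 32.3% were called higher and 32.5% lower, and of the 8 members 7 were higher and 0 lower, with a median log2 fold change of 2.67 beside 0.0043 over all genes. Ccnd2 ranged from 1048 to 2560.5 CPM (median 1952) in cycling neural progenitors and from 173 to 335 (median 277) in NSC-like cells. No experiments overlapped, and the log2 fold change was 2.77 ± 0.16 (SE, adjusted p = 3.3e-25). Cdk4 ranged from 899 to 1124 CPM (median 978) against 93.1 to 185 (median 173), a log2 fold change of 2.59 ± 0.11 (adjusted p = 3.8e-32). Cdk6 ranged from 242 to 503 CPM (median 452) against 34.3 to 121 (median 58.4), a log2 fold change of 2.74 ± 0.17 (adjusted p = 1.4e-23). Both kinases rose without overlap, as their leading cyclin did.

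The inhibitors rose with them. Cdkn1a ranged from 39.9 to 107 CPM (median 50.0) in cycling neural progenitors and from 0 to 16.1 (median 1.32) in NSC-like cells, with a log2 fold change of 3.73 ± 0.32 (adjusted p = 4.9e-17). Cdkn1c, 12.9 to 18.3 CPM against 0 to 3.91, had 212 UMIs in the cycling sums and 5 in the NSC-like sums, a pooled ratio of 25.9 (95% counting interval 10.9 to 80.5). The fitted log2 fold change was 4.59 ± 0.46 (adjusted p = 2.5e-14). Cdkn1b moved least of the inhibitors, by 0.53 ± 0.12 (adjusted p = 0.00011), higher in 7 of 7 experiments, with overlapping ranges of 78.1 to 189.1 and 43.2 to 135 CPM. Ccnd1 rose by 0.83 ± 0.22 (adjusted p = 0.00087) in 6 of 7 experiments, and DESeq2 gave 0.62 with an adjusted p of 0.13. For Ccnd3 the log2 fold change was −0.09, with a 95% interval of −0.38 to 0.20 (adjusted p = 0.62). Of 8 immediate early genes, which respond to dissociation, 2 were higher and 5 lower in cycling neural progenitors, and their part was not tested.

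**Figure D3:**
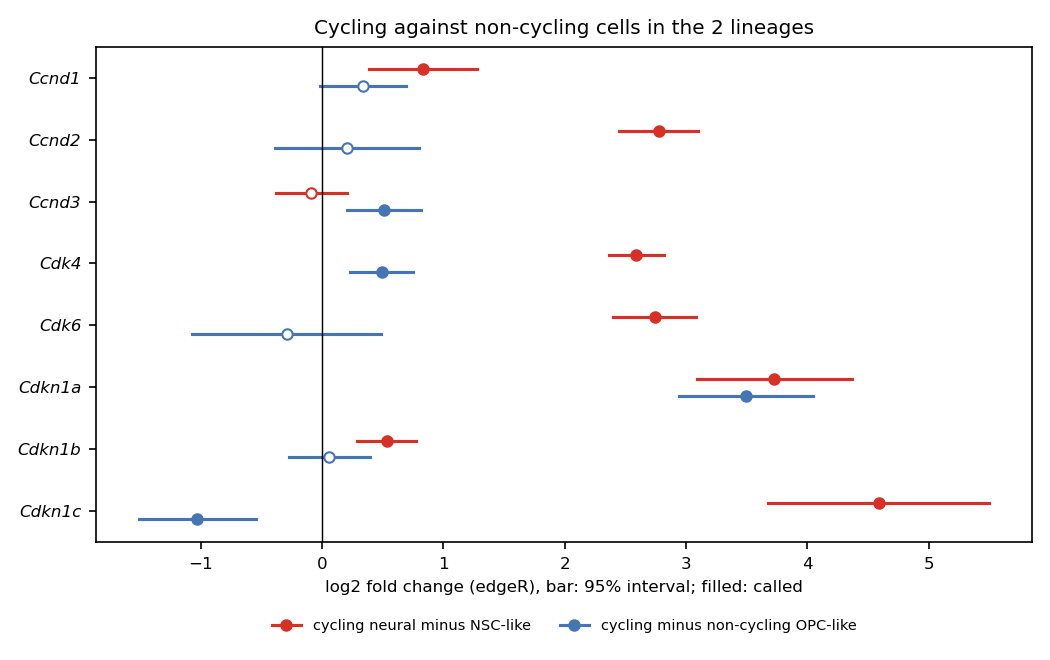
Log2 fold change of each gene between cycling and non-cycling cells, with the 95% interval, in the neural lineage and in OPC-like cells. The neural lineage is cycling neural progenitors minus NSC-like cells (7 experiments). Cycling OPC-like sums came from 4 experiments. Filled points are called at an adjusted p under 0.05, and Ccnd2, Cdk4, Cdk6 and Cdkn1c lie further to the right in the neural lineage. Cdkn1c had only 5 UMIs in the NSC-like sums.

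Cycling neural progenitors mix several stages, so the cycling cells were divided by their best marker list, a comparison added after the data had been seen. In cycling cells with NSC markers (4 experiments), 5 members were higher and 0 lower than in NSC-like cells, where 14.9% of 11581 genes were higher and 21.2% lower. Ccnd1 was 149, 177, 124 and 173 CPM in the cycling NSC-like cells of M1, M2a, M6b and M6c (59, 12, 14 and 14 cells). All 4 lay above every NSC-like sum (10.8 to 40.4 CPM), with a log2 fold change of 2.19 ± 0.30 (adjusted p = 2.3e-09). Ccnd2 rose by 1.98 ± 0.19, Cdk4 by 1.93 ± 0.13, Cdk6 by 1.73 ± 0.24 and Cdkn1a by 3.70 ± 0.44 (adjusted p at most 5.0e-09). Cdkn1b did not keep its direction, at −0.28 ± 0.18 (adjusted p = 0.23). Cdkn1c had 3 UMIs in cycling NSC-like cells, a pooled ratio to NSC-like cells of 3.50 (0.544 to 18.0), and was not called.

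Ccnd1 fell and Ccnd2 rose from the first to the next stage of the dividing neural cells. From cycling NSC-like to cycling IPC-like cells, 5 members were higher and 1 lower (7.93% and 8.02% of all genes). Ccnd1 fell by 1.95 on the log2 scale (SE 0.29, adjusted p = 2.3e-07), to a mean of 34.9 ± 19.0 CPM, while Ccnd2 rose by 0.87 ± 0.19, Cdk4 by 0.62 ± 0.12, Cdk6 by 1.03 ± 0.21 and Cdkn1b by 0.66 ± 0.18 (largest adjusted p = 0.0055). Cdkn1c also rose, with a pooled ratio of 6.53 (2.14 to 32.4). In cycling neuroblast-like cells, 4 members were higher and 2 lower than in cycling NSC-like cells (12.7% and 14.3% of all genes). There Ccnd1 fell by 3.30 (SE 0.39, adjusted p = 9.6e-11) and Ccnd3 fell by 0.87 (SE 0.26, adjusted p = 0.0091). Cdkn1b rose by 1.25 ± 0.18 (adjusted p = 4.9e-08) and Cdkn1c by 3.53 ± 0.67 (adjusted p = 1.8e-05, pooled ratio 11.6, 3.77 to 58.0), and Ccnd2 did not differ by the test (0.36 ± 0.19, adjusted p = 0.15).

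Neuroblast-like cells outside the cycle had less of the cyclins and kinases and more of Cdkn1b and Cdkn1c. Against cycling neural progenitors, 2 members were higher and 6 lower (31.2% and 28.4% of 11764 genes), with a median of −1.01 beside 0.049 over all genes. Ccnd2 fell to 139 to 473 CPM (median 316), and Cdk6 to 113 to 238 (median 185). Both were without overlap, with log2 fold changes of −2.65 ± 0.15 (adjusted p = 2.3e-25) and −1.29 ± 0.14 (adjusted p = 3.4e-13). Ccnd1 fell by 3.08 (SE 0.25), Cdkn1a by 2.37 (SE 0.22), Ccnd3 by 0.74 (SE 0.14) and Cdk4 by 0.63 (SE 0.10), so that Cdk4 stayed at 565 to 702 CPM, above every NSC-like sum. Cdkn1b was higher by 0.34 ± 0.11 (adjusted p = 0.0044) and Cdkn1c by 0.72 ± 0.18 (adjusted p = 0.00048), each in 7 of 7 experiments, and neither was called on Version 2 alone (0.27 and 0.67). Against cycling neuroblast-like cells alone (6 experiments), 0 members were higher and 5 lower (20.8% and 13.6% of all genes). Cdkn1b then differed by −0.16 ± 0.12 and Cdkn1c by 0.14 ± 0.25 (adjusted p = 0.34 and 0.70), so neither was called higher on leaving the cycle within that stage.

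**Figure D4:**
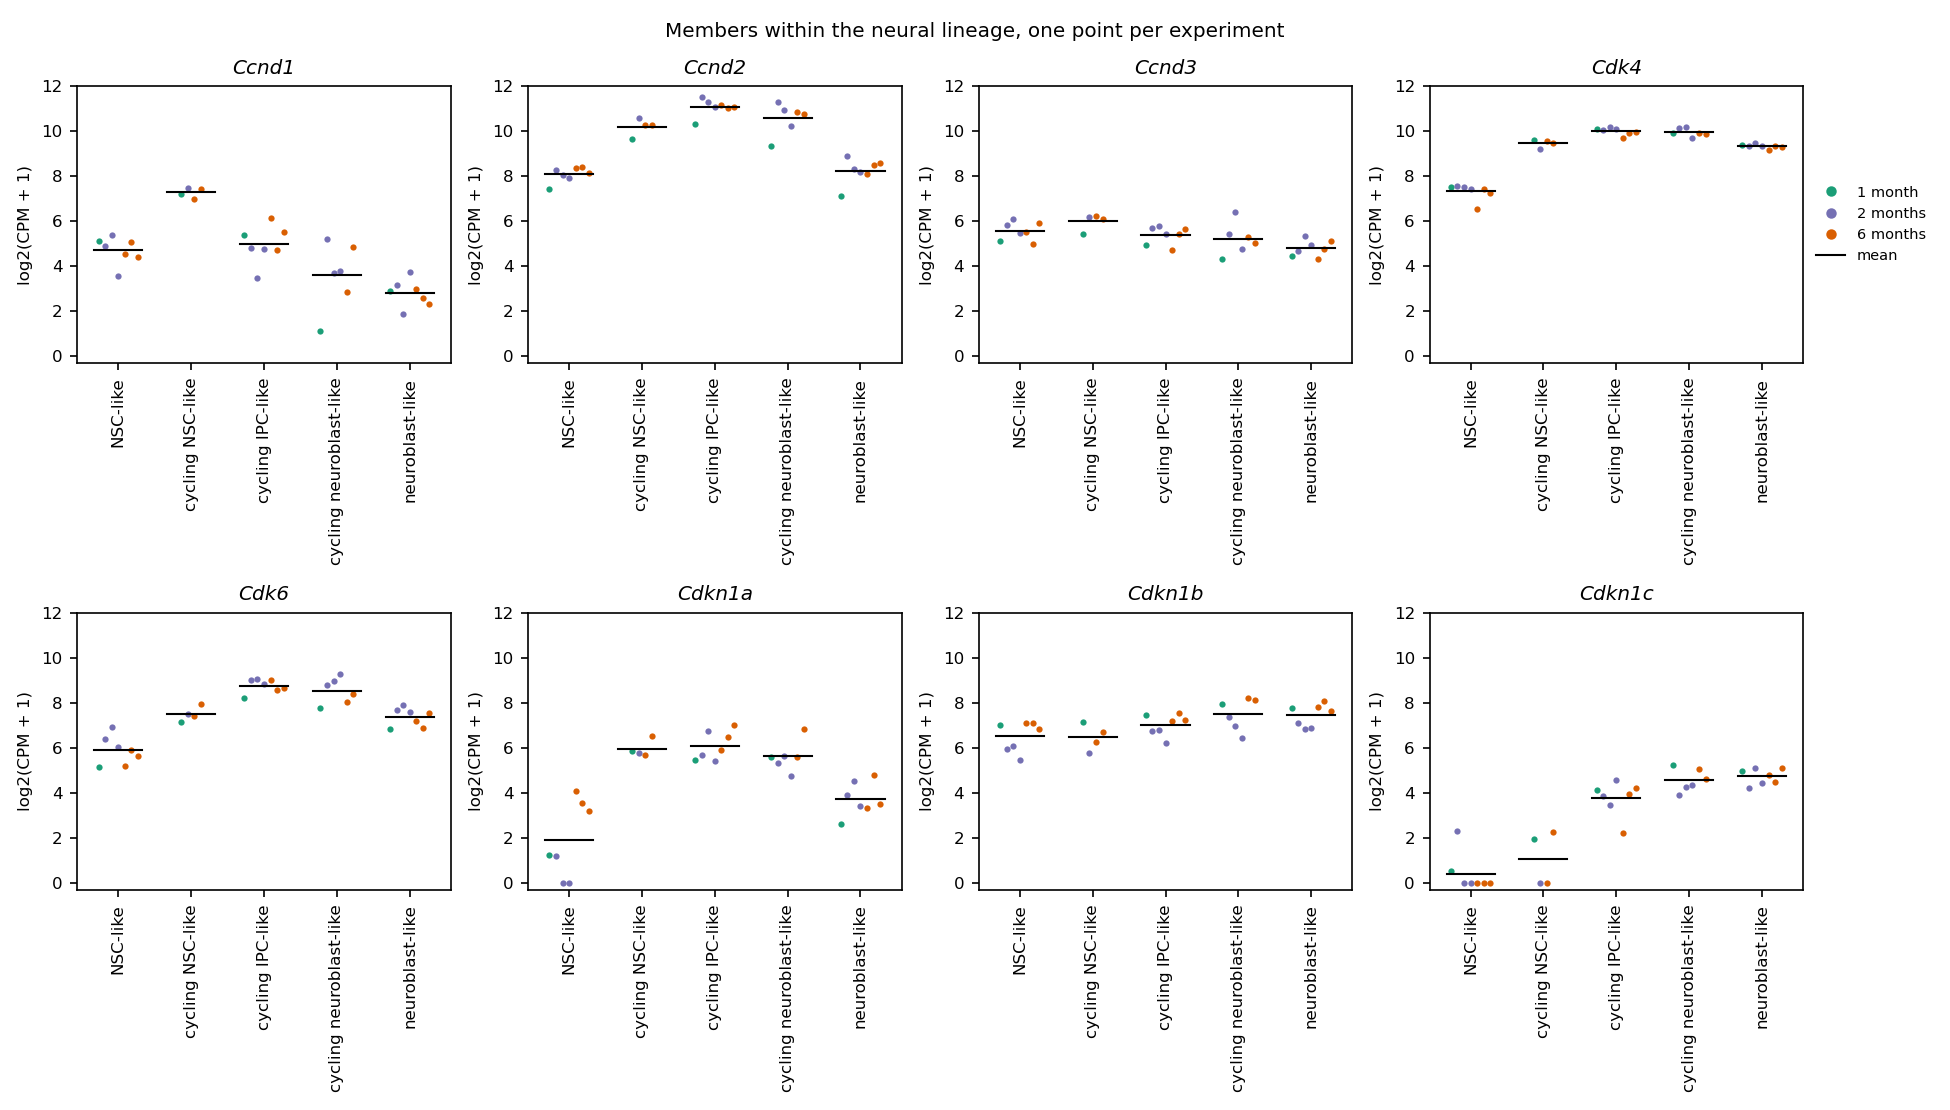
Each gene along the neural lineage, from NSC-like cells through cycling NSC-like, cycling IPC-like and cycling neuroblast-like to non-cycling neuroblast-like cells, as log2(CPM + 1) with 1 point per experiment and a bar at the mean. Ccnd1 is higher in cycling NSC-like cells (mean 156 CPM) than in the later stages, the means of Ccnd2 in cycling IPC-like and cycling neuroblast-like cells are 2194 and 1646 CPM with overlapping points, and Cdkn1c goes from near 0 to 26.1 CPM in neuroblast-like cells.

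NSC-like cells were set against astrocyte-like cells, a type close to them. Both types were gated as non-cycling, and cells with astrocyte markers as their best list were kept out of the cycling neural gate. Of the members 4 were higher and 0 lower (16.4% of 11764 genes each way), with a median of 0.77 beside 0.030. Ccnd2 was 6.29-fold higher (log2 2.65 ± 0.22, adjusted p = 1.3e-16), from 22.2 to 54.8 CPM in astrocyte-like cells, with no overlap. Cdk6 was higher by 3.23 ± 0.36 (adjusted p = 7.4e-12), Ccnd1 by 2.24 ± 0.41 (adjusted p = 6.6e-06, in 6 of 7 experiments) and Cdk4 by 1.04 ± 0.14 (adjusted p = 3.5e-09). Non-cycling NSC-like cells thus had more of both kinases and 2 of the cyclins. The immediate early genes, which respond to dissociation, moved with this comparison too, at a summed 1901 to 6296 CPM in NSC-like and 274 to 1141 in astrocyte-like cells without overlap, and their part in these differences was not tested. No inhibitor was called, although Cdkn1b (0.28 ± 0.14, adjusted p = 0.14) was called without M1 (0.41, adjusted p = 0.048), and Cdkn1c had 5 UMIs in each of the types.

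In the oligodendrocyte lineage, the change with division was largest for Cdkn1a, and neither Ccnd2 nor Cdk6 was called. Cycling OPC-like sums came from the 4 experiments with at least 10 cycling cells. The shared fit also held the OPC-like sums of the other experiments. Of the members 3 were higher and 1 lower (9.21% and 7.33% of 11764 genes), with a median of 0.27 beside −0.12 over all genes. Cdkn1a was 24.8, 0, 89.3 and 140 CPM in the cycling OPC-like cells of M1, M2c, M6b and M6c, against 2.21 to 10.2 in OPC-like cells of all experiments. It was higher in 3 of 4, and the log2 fold change was 3.49 ± 0.28 (adjusted p = 5.8e-18). The summed level of the endothelial marker list, a type rich in Cdkn1a, was 43.9, 258, 58.8 and 65.6 CPM in the same cycling sums and 36.0 to 102 in OPC-like cells, with 2 or 3 of the 8 markers detected in each cycling sum. The microglial list, of another type rich in Cdkn1a, was 0 to 1.32 CPM in the cycling sums and 0.267 to 17.7 in OPC-like cells. The part of such cells in the level of Cdkn1a was not tested.

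The other members moved by less. Cdk4 was 483, 405, 342 and 430 CPM in the same order, above its own experiment's OPC-like sum in 4 of 4, and the fitted change was 0.49 ± 0.13 (adjusted p = 0.0038). Ccnd3 rose by 0.51 ± 0.15 (adjusted p = 0.012), and Cdkn1c fell by 1.03 (SE 0.24, adjusted p = 0.001), lower in 4 of 4, though not called at a higher cycling limit (−0.68, adjusted p = 0.071). Ccnd1, at 852, 699, 665 and 785 CPM, also lay above its own experiment's sum in 4 of 4, but its change of 0.34 ± 0.18 missed the threshold (95% interval −0.02 to 0.70, adjusted p = 0.20), and it was called when only these types were fitted (0.46 ± 0.09, adjusted p = 6.6e-06). Ccnd2 (0.21 ± 0.30), Cdk6 (−0.29 ± 0.39) and Cdkn1b (0.06 ± 0.17) were not called. In CPM, Ccnd2 was higher in the cycling cells in 4 of 4 experiments, Cdk6 in 3 of 4 and Cdkn1b in 2 of 4. Without M6c, which holds 135 of the cycling cells, Cdk4 (0.34, adjusted p = 0.21) and Ccnd3 (0.50, adjusted p = 0.14) lost their calls. With doublets kept, Ccnd2 would have been called at 1.73 (adjusted p = 8.2e-08).

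Dividing cells of the 2 lineages were then set against each other. Both were found in 4 experiments, and the shared fit also held the cycling neural sums of the others. Between cycling neural progenitors and cycling OPC-like cells, 4 members were higher and 2 lower (27.9% and 28.1% of all genes), with a median of 0.76 beside 0.040. Ccnd2 was 38.2, 110, 34.9 and 45.7 CPM in cycling OPC-like cells and 1048, 1852, 1907 and 1952 in the cycling neural progenitors of the same experiments. The log2 fold change was 5.66 ± 0.28 (adjusted p = 1.0e-28), and those for Cdk6, Cdk4 and Cdkn1b were 4.89 ± 0.30, 1.63 ± 0.14 and 1.46 ± 0.16 (largest adjusted p = 4.5e-12). Ccnd1 was lower in the neural cells by 3.47 (SE 0.19, adjusted p = 5.0e-26) and Ccnd3 by 1.17 (SE 0.16, adjusted p = 3.2e-09). Cdkn1a was at 0.05 ± 0.24 (adjusted p = 0.88) and its direction moved with the cycling limit, from 0.80 at a lower limit to −0.59 at a higher one, both called. Cdkn1c was at −0.19 ± 0.28 (adjusted p = 0.58). Scaling by total UMIs moved the median of all genes from 0.040 to −0.28 and kept each of the 6 calls. Of 8 immediate early genes, 6 were higher and 0 lower in the neural cells (median 1.65), and their part was not tested.

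The difference between the cycling effects was tested in the same fit, with the NSC-like and OPC-like sums that the preceding comparisons also use. Of the members 4 were higher and 1 lower in the neural lineage (21.5% and 18.7% of all genes), with a median of 1.30 beside 0.096. Cdk6 differed by 3.03 ± 0.39 (adjusted p = 1.6e-09), Ccnd2 by 2.57 ± 0.33 (adjusted p = 1.2e-09), Cdk4 by 2.10 ± 0.18 (adjusted p = 1.9e-16) and Cdkn1c by 5.62 ± 0.53 (adjusted p = 2.1e-14). The size for Cdkn1c rests on a floor of 5 UMIs in all NSC-like sums together. From non-cycling to cycling cells, the kinases and Ccnd2 thus rose more on the neural side, which mixes stages, than in OPC-like cells. The cycling groups also differed in UMIs of the cycle genes, with medians of 78.1 per 10000 in neural and 37.2 in OPC-like cells. Under 30 per 10000 were 166 of 1357 neural and 100 of 270 OPC-like cells. The part of this in the difference between the lineages was not tested. Ccnd3 differed by −0.60 ± 0.21 (adjusted p = 0.019), but lost this call under 8 alternatives, among them without M1 (−0.56, adjusted p = 0.082) and without M6c (−0.53, adjusted p = 0.15). Ccnd1 (0.49 ± 0.29, adjusted p = 0.18), Cdkn1a (0.24 ± 0.48, adjusted p = 0.74) and Cdkn1b (0.47 ± 0.21, adjusted p = 0.063) were not called. Cdkn1b was called under 6 alternatives, among them without M1 (0.70, adjusted p = 0.012), and Ccnd1 with only the types compared (0.62, adjusted p = 0.011) and with no filter on low counts (0.72, adjusted p = 0.0068).

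With only the cycling NSC-like cells on the neural side (3 experiments held all types compared), 4 members were higher and 0 lower (5.04% and 7.92% of all genes). The cycling OPC-like cells were not divided by marker list in this way. Ccnd1 now differed by 1.80 ± 0.35 (adjusted p = 6.6e-05), Ccnd2 by 1.79 ± 0.34, Cdk4 by 1.44 ± 0.17 and Cdk6 by 2.03 ± 0.43 (largest adjusted p = 0.00035). Cdkn1c was not called (2.60 ± 1.30, adjusted p = 0.20). In level, cycling NSC-like cells still had less Ccnd1 than cycling OPC-like cells, by 2.04 on the log2 scale (SE 0.26), and more Ccnd2, by 4.98 ± 0.29 (4 members higher and 3 lower, 18.2% and 19% of all genes).

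Leaving the precursor state in the oligodendrocyte lineage came with a loss of D-type cyclins and Cdk6, but not at first of Cdk4. In committed oligodendrocyte-like cells (6 experiments), 2 members were higher and 4 lower than in OPC-like cells (20.4% and 28.6% of all genes), with a median of −1.31 beside −0.11. Ccnd1 was 17.8 to 192 CPM (median 45.7) against 395 to 709 (median 537) in OPC-like cells, without overlap, a log2 fold change of −4.18 ± 0.24 (adjusted p = 1.4e-24). The committed cells differed by chemistry without overlap, at 63.1 to 192 CPM on Version 2 and 17.8 to 28.3 on Version 3, and the fitted change was −2.23 ± 0.28 on Version 2 alone and −4.67 ± 0.22 on Version 3 alone. Ccnd2 fell by 1.84 (SE 0.36), Ccnd3 by 1.36 (SE 0.17) and Cdk6, of which 8 UMIs remained, to a pooled ratio of 0.134 (0.0575 to 0.266). Cdk4 and Cdkn1c went the other way. Cdk4 was 440 to 540 CPM (median 480) against 188 to 348 (median 273), higher in 6 of 6 experiments by 0.91 ± 0.11 (adjusted p = 2.0e-10). Cdkn1c was 45.9 to 185 CPM (median 138) against 23.5 to 56.9 (median 45.4), higher by 1.61 ± 0.16 (adjusted p = 2.7e-14). With the experiments on Version 2 alone, Cdkn1c was at 0.78 and not called. Of 8 immediate early genes, 0 were higher and 5 lower in committed cells (median −1.54), and their part was not tested.

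In mature oligodendrocyte-like cells 1 member was higher and 6 lower than in OPC-like cells (38.9% and 35.2% of all genes), with a median of −1.49 beside 0.059. Ccnd1 fell by 5.45 (SE 0.19), Cdk6 by 3.31 (SE 0.30), Ccnd2 by 2.51 (SE 0.24), Cdkn1c by 1.50 (SE 0.16), Ccnd3 by 1.48 (SE 0.12) and Cdk4 by 0.85 (SE 0.11), with the largest adjusted p at 4.2e-11 and no overlap in CPM. Cdk4 and Cdkn1c, higher in committed cells, were thus lower in mature ones. Cdkn1b was called higher by 0.77 ± 0.12, but in CPM it was higher in only 4 of 7 experiments, and scaling by total UMIs gave 0.014 (adjusted p = 0.91). Such scaling moved the median of all genes from 0.059 to −0.69 in this comparison.

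Within cycling cells, S-phase and mitotic cells were compared, each cell placed by a 2-fold excess of one gene list. The list for mitotic cells covers G2 and mitosis, so the cells called mitotic here include G2 cells. The S-phase list holds genes also expressed in G1, so the cells called S phase may include G1 cells. In cycling neural progenitors (7 experiments), 7 members passed the filter on low counts, of which 6 were higher in S phase and 1 lower (21.7% of 6348 genes each way), with a median of 0.44 beside 0.0055. Cdkn1b was 48.3 to 128 CPM (median 97.7) in S phase and 131 to 311 (median 244) in mitosis, without overlap, a log2 fold change of −1.22 ± 0.09 (adjusted p = 2.1e-15). Ccnd1 was higher in S phase by 1.18 ± 0.15 (adjusted p = 8.4e-09), Ccnd3 by 1.06 ± 0.17 (adjusted p = 1.2e-06) and Ccnd2 by 0.56 ± 0.05 (adjusted p = 4.0e-14), each in 7 of 7 experiments. The kinases and Cdkn1a differed by less, Cdk4 by 0.18 ± 0.05, Cdk6 by 0.23 ± 0.07 and Cdkn1a by 0.44 ± 0.17 (adjusted p = 0.031). Without the block neither kinase was called, and the call was also lost for Cdk4 on Version 2 alone (0.22, adjusted p = 0.062) and for Cdk6 with DESeq2 (0.22, adjusted p = 0.069) and on Version 3 alone (0.16, adjusted p = 0.17). The call for Cdkn1a was lost under 8 alternatives, including without M1 (0.39, adjusted p = 0.13), M2a (0.35, adjusted p = 0.12), M2b (0.42, adjusted p = 0.054) or M6b (0.34, adjusted p = 0.12).

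Cycling OPC-like cells could be divided in 3 experiments. In M1, M6b and M6c there were 48, 25 and 88 cells in S phase and 15, 14 and 23 in mitosis. Of the 5 members that passed the filter, 0 were higher in S phase and 3 lower (9.46% and 12.9% of 5286 genes), with a median of −0.65 beside 0.0093. Cdkn1b was 84.3, 71.9 and 46.6 CPM in S phase and 217, 155 and 105 in mitosis in M1, M6b and M6c, a log2 fold change of −1.28 ± 0.25 (adjusted p = 3.7e-06). Ccnd1 was 804, 604 and 688 CPM in S phase and 1063, 779 and 1251 in mitosis, lower in S phase by 0.65 (SE 0.13, adjusted p = 4.3e-06). Ccnd2 was 36.5, 28.8 and 32.2 CPM against 44.9, 42.7 and 105 (−1.28 ± 0.35, adjusted p = 0.0021). These levels rest on 13, 6 and 29 UMIs in S phase and 6, 8 and 31 in mitosis. Cdkn1b was thus higher in the cells called mitotic, G2 included, in both lineages. Ccnd1 and, on few UMIs in OPC-like cells, Ccnd2 ran in opposite directions in the lineages. Without M6c, Ccnd1 was at −0.44 (adjusted p = 0.10), and DESeq2 gave −1.02 for Ccnd2 (adjusted p = 0.54). With edgeR, Ccnd2 also lost its call at a lower cycling limit (−0.53, adjusted p = 0.18) and with doublets kept (−0.82, adjusted p = 0.081).

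That contrast between lineages was tested in a fit over both, added after the data had been seen. Of 7 members tested, 4 were higher in neural S phase relative to OPC-like cells and 0 lower (2.67% and 2.26% of 8302 genes). Ccnd1 differed by 1.73 ± 0.20 (adjusted p = 1.6e-09), Ccnd2 by 1.65 ± 0.33 (adjusted p = 0.00053) and Ccnd3 by 1.24 ± 0.28 (adjusted p = 0.0026). Cdkn1a differed by 3.28 ± 0.37 (adjusted p = 1.5e-09). In cycling OPC-like cells Cdkn1a was 14.0, 24.0 and 33.3 CPM in S phase and 22.4, 117 and 312 in mitosis, higher in mitosis in 3 of 3. These levels rest on 40 UMIs in S phase and 117 UMIs in mitosis. The filter on low counts kept Cdkn1a out of the test in those cells alone, and it was tested only in this fit with the neural sums. Cdkn1b did not differ between the lineages by this test, with a 95% interval of −0.62 to 0.59.

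**Figure D5:**
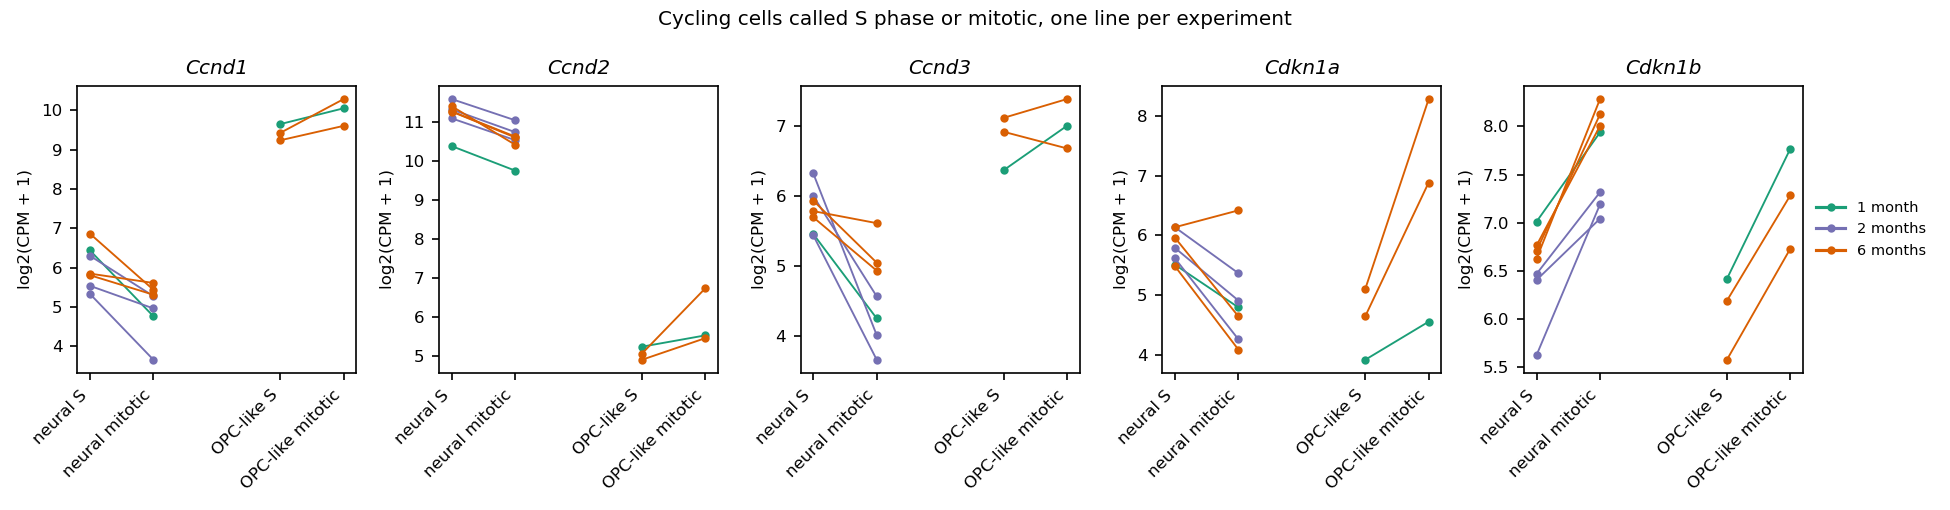
S-phase and mitotic cells of each lineage as log2(CPM + 1), with 1 point per experiment and lines that join the phases of 1 experiment. Each panel has its own vertical range. Cells called S phase may include G1 cells. Cdkn1b is higher in mitotic cells, which include G2 cells, in both lineages (log2 −1.22 and −1.28). Ccnd1 is higher in S phase in cycling neural progenitors (1.18) and lower in cycling OPC-like cells (−0.65).

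The partners downstream of cyclin D were counted beside all genes. Of all genes, 32.3% were higher and 32.5% lower in cycling neural progenitors than in NSC-like cells. In cycling against non-cycling OPC-like cells the shares were 9.21% and 7.33%. Of 13 RB and E2F genes, 9 were higher and 2 lower in cycling neural progenitors than in NSC-like cells, and 8 higher and 0 lower in cycling than in non-cycling OPC-like cells, with medians of 2.29 and 1.08. E2f1, an activator of S-phase genes, rose by 5.10 ± 0.24 and 5.75 ± 0.34, and the repressor E2f7 by 7.84 ± 0.66 and 6.70 ± 0.46. Of 12 other G1 and S regulators, 11 were higher and 1 lower in the neural lineage, and 7 higher and 1 lower in OPC-like cells (medians 2.77 and 1.77). Ccne1, a cyclin E, rose by 5.28 ± 0.32 and 3.92 ± 0.27, while Ccna2 is itself one of the genes that defined cycling cells. These E2F and cyclin E genes were called in both lineages, as was Cdk4, while Ccnd2 and Cdk6 were called in the neural lineage alone. Of the INK4 inhibitors, which bind Cdk4 and Cdk6, 3 of 4 were tested and 2 rose in each lineage. Cdkn2c (p18) rose by 2.44 ± 0.17 in neural cells and by 4.81 ± 0.21 in OPC-like cells, a difference of −2.37 ± 0.28 (adjusted p = 8.4e-11). Cdkn2d (p19) rose by 1.91 ± 0.15 and 1.51 ± 0.16.

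Genes that share a regulator or a neighbourhood with the Cip/Kip inhibitors were counted in the same way. Of 9 genes of the p53 pathway tested, of which Cdkn1a is a classical target, 4 were higher and 1 lower in cycling neural progenitors, the first near the 32.3% of all genes, and in cycling OPC-like cells edgeR called 0 of 9, although Cdkn1a rose there (median 0.06 in both). Trp53 itself rose by 2.11 ± 0.14 in the neural lineage. In the imprinted domain of Cdkn1c, 4 of 8 genes were tested. In cycling neural progenitors 3 rose, Nap1l4 by 1.08 ± 0.11, Tssc4 by 0.76 ± 0.13 and Kcnq1ot1 by 0.51 ± 0.16, and Cd81 fell by 2.55 (SE 0.13). In cycling OPC-like cells, where Cdkn1c fell, 1 rose, Tssc4 by 0.95 ± 0.14. In committed oligodendrocyte-like cells, where Cdkn1c rose, 2 of the 4 rose, Nap1l4 by 0.43 ± 0.12 and Cd81 by 0.33 ± 0.13 (20.4% of all genes were higher there).

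With age, 1 member was called. The 3 experiments at 6 months were compared with the 1 at 1 month, all on Version 3, and the lone 1-month experiment is assumed to vary like the others. In neuroblast-like cells 1 of 8 members was higher and 0 lower (0.374% and 0.221% of 10426 genes), and in OPC-like cells likewise (0.944% and 0.21% of 13346). Both times it was Ccnd2. In neuroblast-like cells Ccnd2 was 139 CPM at 1 month and 274, 363 and 383 at 6 months, a log2 fold change of 1.26 ± 0.24 (adjusted p = 7.5e-05). In OPC-like cells it was 18.2 CPM at 1 month and 45.4, 33.4 and 40.1 at 6 months (1.01 ± 0.27, adjusted p = 0.030), and without M6c the adjusted p was 0.15. At 2 months, on the other chemistry, neuroblast-like cells had 473, 316 and 292 CPM, and M1 was the lowest of the 7 experiments in both types. M1 was also the lowest for Ccnd2 in NSC-like (173 CPM), cycling neural (1048) and astrocyte-like cells (22.2). In committed and mature oligodendrocyte-like cells it held 0 UMIs of Ccnd2. In cycling OPC-like and IPC-like cells the lowest levels, 34.9 and 773 CPM, were in other experiments. Endothelial-like and mural-like cells of M1 had 29.9 and 65.9 CPM, the highest on Version 3, from 10 and 26 UMIs. Age cannot be told apart from the single 1-month experiment.

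In cycling neural progenitors edgeR called 0 of 8 members (0.357% of 10918 genes each way, 597 genes at an unadjusted p under 0.05 and 78 after adjustment). Ccnd2 was 1048 CPM at 1 month and 2166, 1907 and 1952 at 6 months, a log2 fold change of 0.92 ± 0.26 (adjusted p = 0.078), and 0.96 without M6c (adjusted p = 0.00027). Cdkn1a was called only without M6a (1.00, adjusted p = 0.049). In NSC-like cells 0 of 7 members tested were called (0.898% and 0.486% of 9465 genes, 671 at an unadjusted p under 0.05), and Ccnd2 was at 0.75 ± 0.28 (adjusted p = 0.26). With DESeq2, 2 and 16 genes in all were called in these comparisons, none of them a member. Immediate early genes were higher at 6 months too, 5 of 8 in cycling neural progenitors, 5 of 8 in NSC-like cells, 1 of 7 in neuroblast-like and 4 of 7 in OPC-like cells. Their part in the level of Ccnd2 was not tested. Of the INK4 genes, 1 was higher in OPC-like cells at 6 months, Cdkn2a (2.99, adjusted p = 0.005), named after its value was seen.

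The genes whose mean levels over 12 types ran most alike with a member, out of 11483, were listed as a description without a test, since the types share libraries and depth. They were Lgi2 for Ccnd1 (r = 0.93), Zc3hav1 for Ccnd3 (0.95), Snrpf for Cdk4 (0.97) and Emg1 for Cdk6 (0.94). For the inhibitors they were Itpripl1 with Cdkn1a (0.95), Ddx49 with Cdkn1b (0.96) and Cdc42 with Cdkn1c (0.89).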

How the data were processed

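Per the labels and the paper's methods, cells were sorted from dentate gyri, sequenced with 10x 3′ kits and mapped by the authors with Cell Ranger 3.0.2 to a custom mm10 genome with reporter elements. The libraries were merged without normalization. The authors deposited whole-number UMI counts. Per the labels, cutadapt 1.18 and Seurat were also used. Columns of samples left unmapped numbered 0.

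The paper's limits of more than 500 genes and less than 10% mitochondrial UMIs chose the barcodes. Cells were typed by marker lists (at least 3 markers and a lead of 0.05 in score over the next list). Cells with 3 or more markers from a second lineage as well as from their own were left out as doublets, counting only markers seen in under 10% of the cells of other lineages. Limits were set with cell counts in view. UMIs were summed per experiment and type where at least 10 cells were found, with the tdTomato+ and tdTomato- libraries of M2a joined. Sums were fitted with edgeR 4.0.16 (quasi-likelihood test, TMM, filterByExpr, experiment as a block) in R 4.3.3 with limma 3.58.1, and DESeq2 1.42.0 was an alternative. The block rests on shared animals. Samples of 1 experiment deviated together (correlations of 0.17 to 0.61 over 4 pairs of types). The neural, astrocyte-like and oligodendrocyte lineage types of all ages share a fit. Immature neuron-like, vascular and microglia-like sums were in no fit. Phases, and cycling neural cells divided by marker list, had fits of their own. Ages were compared on Version 3 without a block. Shares were compared with exact sign-flip tests. Intervals of pooled ratios cover counting error only. Scripts were tested on simulated data.

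The members, lists and tests were chosen with earlier results of these data known. Named genes are the 8 members in every comparison, up to 4 called genes per pathway list and comparison with the largest change, and for each member the 3 genes of most similar mean level over types. The one for Ccnd2 is not reported here. Promoters came from RefSeq and coordinates from GENCODE M21, another release than the authors'. The labels give 6 months where the paper gives a range that begins there.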

Additional observations from a re-analysis of the deposited data

Results flagged for a closer look

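Between the lineages, the effect of cycling differed by the test for Ccnd2 (2.57 on the log2 scale, neural minus oligodendrocyte), Ccnd3 (−0.60), Cdk4 (2.10), Cdk6 (3.03) and Cdkn1c (5.62, with 5 UMIs in the NSC-like sums). The S-phase minus mitotic difference differed for Ccnd1 (1.73), Ccnd2 (1.65), Ccnd3 (1.24) and Cdkn1a (3.28). In cycling OPC-like cells Cdkn1a had 40 UMIs in S phase and 117 in mitosis, and Ccnd2 had 48 and 45.

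In 11 of 72 sets of within-experiment differences (15.3%), where chance gives about 1 in 20, 1 experiment lay apart from the others. Between cycling neural progenitors and NSC-like cells, these were Cdk4 in M6a (3.26) and Cdkn1c in M2a (1.50). Between cycling and non-cycling OPC-like cells, Ccnd3 (1.68) and Cdkn1b (−4.56) lay apart in M2c, which holds 11 cycling cells. The same experiment lay apart between cycling neural progenitors and cycling OPC-like cells for Cdkn1b (6.31) and Cdkn1c (4.19), both at 0 UMIs in cycling OPC-like cells. Cdkn1b in committed oligodendrocyte-like cells lay apart in M2b (−5.51, with 0 UMIs in 10 cells). Between S-phase and mitotic neural cells, Ccnd2 lay apart in M6b (0.99), Cdkn1a in M6c (−0.28) and Cdkn1c in M6a (4.25, with 0 UMIs in mitosis). Between cycling NSC-like and NSC-like cells it was Ccnd3 in M6b (1.25).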

How the results depend on the processing

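The settings were 21 alternatives, and 1 with only NSC-like cycling neural cells that was added after seeing the data. Over them, 1978 values of single members kept their side of the threshold, 53 lost the call, 25 gained it and 4 reversed. A change of sign counted as reversed only where the main or the alternative value was called. Values called in neither could therefore change sign among the 1978. The reversed values were Cdk4 (−0.076) and Cdkn1a (−3.88) in cycling against non-cycling OPC-like cells on Version 2 alone, which rests on 1 experiment of 11 cells, Cdkn1a between the dividing lineages at a higher cycling limit (−0.59), and Cdkn1b in cycling NSC-like cells (−0.28). Leaving out the experiment as a replicate block lowered the members called from 4 to 1 in cycling OPC-like cells and from 7 to 4 between neural phases. Version 2 alone gave 0 of 8 in cycling OPC-like cells and 1 in place of 5 for the difference of cycling effects. The filter on 20% of cells gave 2 of 3 tested for NSC-like against astrocyte-like cells, in place of 4. Leaving out 1 experiment at a time gave 2 to 4 members in cycling OPC-like cells and 1 to 4 between their phases, the lowest both times without M6c. With age it gave 0 to 1 in cycling neural progenitors (Ccnd2 without M6c and Cdkn1a without M6a) and 0 to 1 in OPC-like cells. The age call in OPC-like cells was also lost (0 members) with total UMIs, DESeq2, the filter on 20% of cells and doublets kept, and with no filter 1 was gained in NSC-like cells, Cdkn1a. The Ccnd2 share of NSC-like over OPC-like cells was 74.5 points on Version 3 (exact permutation p = 0.125) and 66.9 on Version 2 (0.25), the smallest p possible. Without M1 no test of age could be made. On Version 2, and with at least 20 cells per sum, no test of OPC-like phases could be made.

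The share of calls that were higher changed with total UMIs from 52.5% to 19.0% in mature and from 41.6% to 29.3% in committed oligodendrocyte-like cells, from 55.7% to 66.4% in cycling OPC-like cells, from 49.9% to 30.4% between dividing lineages, from 49.9% to 62.6% against astrocyte-like cells, from 49.9% to 64.0% between neural phases, and with age from 64.9% to 80.3% in NSC-like cells, 50% to 37.5% in cycling neural progenitors and 62.9% to 76.2% in neuroblast-like cells. DESeq2's size factors gave 32.8%, 28.4%, 65.0%, 33.7% and 33.6% in the first 5 of these, and 40.4% in place of 53.5% for the difference of cycling effects.

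Counts of called genes over all features moved by over 1.5 times as follows. The filter on 20% of cells gave 4353 in place of 7627 (cycling neural against NSC-like), 3968 for 7002 (neuroblast-like), 4523 for 8722 (mature oligodendrocyte-like) and 1924 for 3854 (astrocyte-like). No block gave 2483 for 3854, 1328 for 2757 (neural phases), 774 for 1184 (OPC-like phases) and 942 for 1945 (cycling OPC-like). Version 2 alone gave 2317 (astrocyte-like), 1188 (neural phases), 62 (cycling OPC-like), 4627 for 7002 (neuroblast-like), 1357 for 5754 (committed), 658 for 6589 (dividing lineages) and 420 for 4736 (cycling effects). Cycling NSC-like cells alone gave 4181 for 7627, 4318 for 6589 and 1501 for 4736. For OPC-like phases DESeq2 gave 345, a higher limit 582 and leaving out M6c 516, and for cycling OPC-like cells a lower limit gave 1225 and that omission 1020. With age, DESeq2 gave 16 for 131 (NSC-like), 26 for 154 (OPC-like), 2 for 78 (cycling neural) and 11 for 62 (neuroblast-like). Total UMIs gave 81, 24 and 21 in the last 3, the filter on 20% of cells 70 (OPC-like) and 31 (cycling neural), a stricter margin 46 and 40 (cycling neural, neuroblast-like) and a lower limit 46 (cycling neural). Omitting M6c gave 65 (NSC-like) and 91 (OPC-like), and omitting M6a gave 79 (NSC-like). Some of these settings test fewer genes or fewer experiments, and the cause of the moved counts was not tested.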
